A study of Mus musculus with 12 samples.

Results

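Exosome small RNA of primary mouse hepatocytes from animals given a high-fat diet (HFD) for 4 weeks was set against that of lean controls. Exosomes are small membrane vesicles that cells release and that carry RNA and protein to other cells. The comparison takes 8 of the 12 libraries of the study, 4 labelled 4wks HFD and 4 labelled lean, control and NCD, and 1958 of the 1965 mouse miRNA rows of the deposited table; the other 7 rows held values that were not whole reads and are given apart. The remaining 4 libraries, from 16 weeks of HFD, serve here for the shared estimate of spread and, for a few miRNAs, as a reference level. All hepatocytes were at passage 0 in Williams' E Medium with 10% FBS (fetal bovine serum) and 1% glutamax, and RNA was taken with a Zymo kit. Serum carries bovine vesicles with miRNAs of its own, and how reads were judged unique to mouse, as the table's name has it, is not given in the sources used here. Strain, sex, age and the number of mice behind a library are not given in the sources used here, so the p-values measure the spread between libraries, which may be technical. The question addressed is which miRNAs leave the hepatocyte differently early in diet-induced obesity.

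A miRNA is cut from a hairpin precursor, whose left and right arms give the 5p and the 3p form. One of the pair usually enters an Argonaute protein and guides it to messenger RNAs that pair with the seed, bases 2 to 8, while the partner strand is degraded. miRNAs with the same seed can bind the same sites, and hairpins that lie close together on a strand are often cut from a single transcript. In liver, miRNAs such as miR-122 and the miR-101, miR-192 and miR-802 families regulate lipid handling, cell growth and insulin signalling.

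The libraries differed in depth. In CPM (counts scaled to the same total of miRNA reads in each library), the deposited values were whole multiples of 1 read for 1601 of 1625 values above 0 (98.5%), which gave 13748 to 30430 miRNA reads per lean library and 2352 to 4477 at 4 weeks of HFD. A single read was therefore worth 32.9 to 72.7 CPM in lean libraries and 223 to 425 CPM at 4 weeks. Lean libraries held 224 to 292 detected miRNAs and 4-week libraries 118 to 173, and 487 were detected in at least 1 of the 8. Fewer vesicles, less RNA per vesicle, lower library yield and less sequencing cannot be told apart from these values. The count test (edgeR's quasi-likelihood test on the recovered reads, with TMM scaling for composition and Benjamini-Hochberg adjusted p under 0.05) could be applied to 72 miRNAs that passed its filter on low counts. Of these, 18 rose at 4 weeks (25%) and 21 fell (29.2%), in all 39 (54.2%), and 42 had an unadjusted p under 0.05.

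The sequences of the miRNAs that passed the count test are shown first, because the seed decides which messages each can bind. RefSeq (GRCm38.p6) held the mature sequence of 33 of the 39. Seeds, bases 2 to 8, are in capitals. Of the miRNAs that rose, the following share their seed with another mouse miRNA of the table. miR-351-5p has the seed of the miR-125 family, miR-362-5p that of miR-500-5p, miR-501-3p that of miR-500-3p, and miR-450b-3p that of miR-450a-1-3p.
miR-351-5p: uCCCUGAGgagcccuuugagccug
miR-362-5p: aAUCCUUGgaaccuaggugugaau
miR-501-3p: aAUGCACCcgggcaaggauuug
miR-450b-3p: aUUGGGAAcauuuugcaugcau
miR-146a-5p: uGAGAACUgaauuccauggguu
miR-24-2-5p: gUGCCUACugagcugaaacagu
miR-7242-3p: uGGCAGCUcggcucuacucugg
The others that rose had seeds held by no other sequence among the matched rows.
miR-182-5p: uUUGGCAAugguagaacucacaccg
miR-322-3p: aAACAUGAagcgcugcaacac
miR-503-5p: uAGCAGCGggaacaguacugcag
miR-455-3p: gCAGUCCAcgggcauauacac
miR-544-5p: uCUUGUUAaaaagcagagucu
miR-6931-5p: uGGGGUGGggagugggggacu
miR-5121: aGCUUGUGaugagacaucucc
miR-1843b-3p: cCGAUCGUuccccuccauac
Among those that fell, miR-92a-3p carries the seed of miR-25, miR-32, miR-363 and miR-367, miR-362-3p that of miR-329-3p, and miR-350-5p that of miR-291b-3p.
miR-92a-3p: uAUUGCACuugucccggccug
miR-362-3p: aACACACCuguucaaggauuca
miR-350-5p: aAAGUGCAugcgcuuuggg
The others that fell again had a seed of their own.
miR-101b-3p: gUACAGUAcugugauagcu
miR-802-3p: aCGGAGAGucuuugucacucag
miR-6921-3p: uGACUACUccuugccucucag
miR-674-3p: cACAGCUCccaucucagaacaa
miR-3068-5p: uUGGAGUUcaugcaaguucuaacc
miR-872-5p: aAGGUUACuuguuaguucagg
miR-1843a-5p: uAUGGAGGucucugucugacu
miR-1843b-5p: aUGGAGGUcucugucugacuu
miR-191-3p: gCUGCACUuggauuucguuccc
miR-203-5p: aGUGGUUCuugacaguucaaca
miR-203b-3p: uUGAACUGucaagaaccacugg
miR-21a-3p: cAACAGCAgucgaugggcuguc
miR-339-3p: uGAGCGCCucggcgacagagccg
miR-505-3p: cGUCAACAcuugcugguuuucu
miR-541-5p: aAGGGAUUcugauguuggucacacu
The pair miR-1843a-5p and miR-1843b-5p is the closest of these. Shifted by 1 base, they are identical over 20 bases, so their seeds differ although their sequences do not, and the counting could have split reads between them. The sequences miR-203-5p and miR-203b-3p come from opposite strands of a single locus on chromosome 12.

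The main feature of the 4-week exosomes was a smaller share of miR-101b-3p, a miRNA of the miR-101 family, whose known targets include the histone methyltransferase Ezh2. It is cut from an intron of Rcl1 on chromosome 19 (29135279 to 29135375, plus strand, mm10). Shifted by 1 base, miR-101a-3p differs from it by 1 base over 18 and was listed at 0 reads in lean and at 4 weeks. The counting could have assigned reads of miR-101a-3p to miR-101b-3p, which was not tested. Its share of the miRNA reads was 61.2, 62.8, 70.7 and 55.1% in lean libraries 1 to 4 and 16.0, 21.24, 36.9 and 27.4% in the 4-week libraries. Every 4-week library lay below every lean one. The mean went from 62.5% ± 6.45 (SD, n = 4) to 25.4% ± 9.01 (SD, n = 4), a difference of -37.1 percentage points (exact permutation test, two-sided, p adjusted over 3 profile measures 0.0286, which is the smallest the 70 assignments can give). The 95% Wilson intervals of the single shares, which cover counting error only, were at most 3.32 points wide. At 16 weeks miR-101b-3p stood at 603986 CPM ± 67688 (SD, n = 4), beside 619422 ± 63741 (SD, n = 4) in lean libraries.

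**Figure D1:**
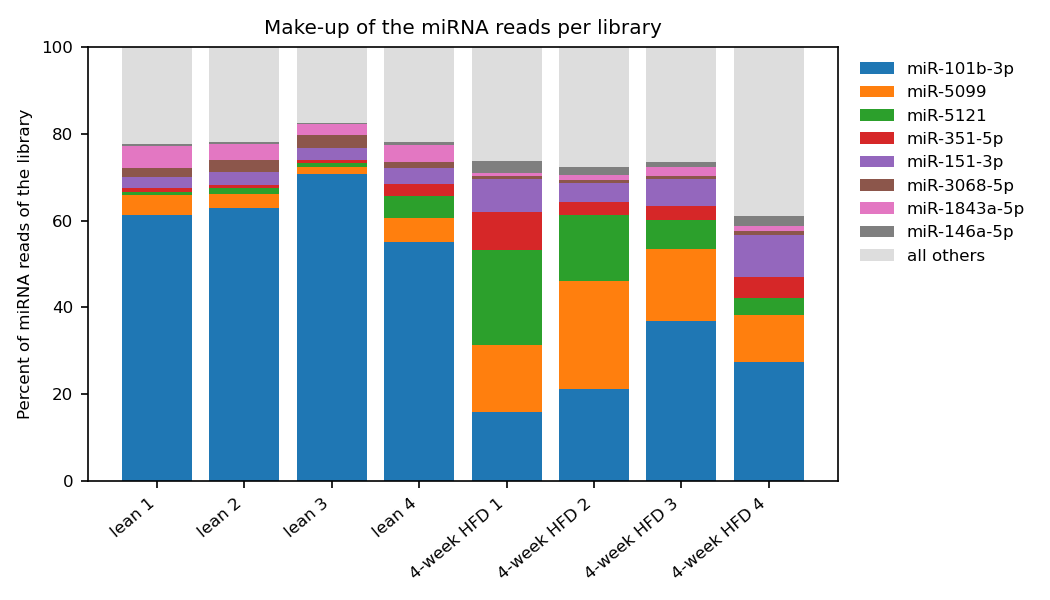
Make-up of the miRNA reads of the 8 libraries, as percent of each library's miRNA reads; each bar is 1 library and each colour 1 miRNA. miR-101b-3p takes 55.1 to 70.7% of the lean bars and 16.0 to 36.9% of the 4-week bars, where miR-5099 and miR-5121 take more.

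With that miRNA less dominant, the rest of the profile changed shape. The inverse Simpson index, the number of equally abundant miRNAs that would give the same evenness, was 2.62, 2.50, 1.98 and 3.18 in lean libraries and 8.81, 7.37, 5.69 and 9.48 at 4 weeks. It was higher in every 4-week library (difference 5.27, exact permutation test, adjusted p 0.0286). Without miR-101b-3p the order turned, from 21.3 ± 2.58 (SD, n = 4) in lean to 10.5 ± 4.64 (SD, n = 4) at 4 weeks, since fewer of the other miRNAs held most of the remaining reads. At a common depth of 2335 reads a lean library showed 104 ± 8.84 miRNAs and a 4-week library 130 ± 14.7 (SD, n = 4 each; difference 26.1, exact permutation test, adjusted p 0.0286). At full depth the difference was -89, and without miR-101b-3p it was -9.14 (exact permutation test, p 0.343), so the direction of this measure depends on depth and on that miRNA.

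Such a shift in one dominant miRNA moves the CPM of all others, so folds depend on the scaling. The median log2 fold change of the 72 tested miRNAs was -0.03 with TMM and 0.57 with library totals alone, a shift of 0.60. With library totals alone, 24 rose and 8 fell, and with library totals and miR-101b-3p removed the numbers were 13 and 25 of 63. All 18 miRNAs that rose with TMM still passed with library totals, and all 21 that fell kept their direction, 8 of them past the threshold. Removing miR-101b-3p as well moved the median to -0.66 and left 13 of 15 risers and 20 of 20 fallers past the threshold among those still tested. The run with library totals alone thus favours risers, and the run that also removes miR-101b-3p favours fallers. Fold changes below are on the TMM scale and are relative to the bulk of the tested miRNAs.

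**Figure D2:**
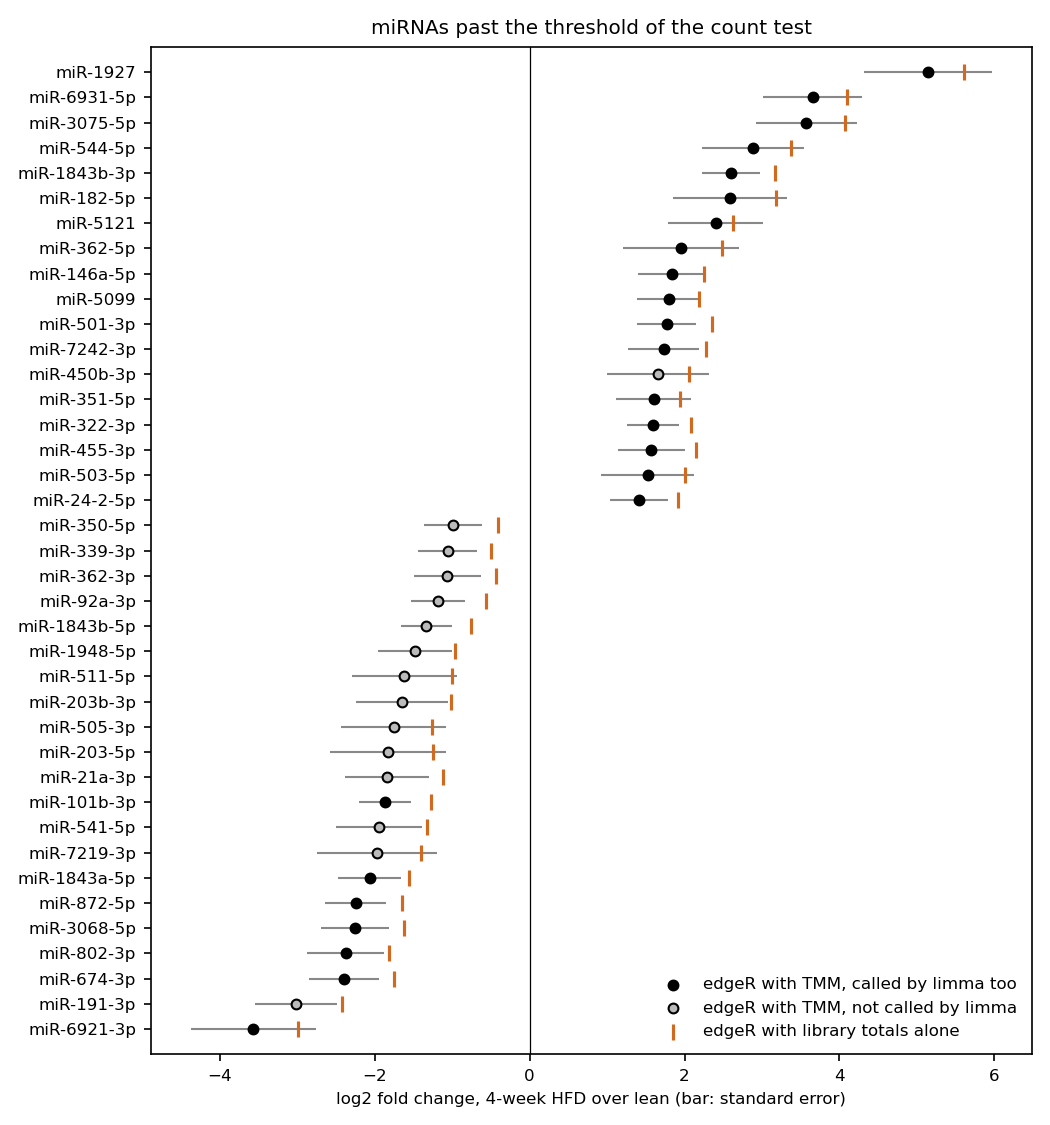
log2 fold change, 4-week HFD over lean, of the 39 miRNAs past the threshold of the count test; points are edgeR estimates with TMM, bars their standard errors, filled points passed limma too, and ticks are the estimates with library totals alone. Risers lie between 1.41 and 5.14 and fallers between -3.57 and -0.99, and every tick lies to the right of its point.

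A second test, limma on log2(CPM + 1), covered 267 miRNAs of which 25 rose (9.36%) and 31 fell (11.6%). Of those 31, 21 had no read in any 4-week library, where 3 reads over the group equal 213 CPM. Both tests together called 17 risers and 7 fallers. The limma test used CPM without TMM scaling, so the change in miR-101b-3p moves its folds as it does with library totals alone. The risers of the count test took 9.50% ± 5.38 of the lean CPM and 47.0% ± 12.3 at 4 weeks (SD, n = 4 each), and the fallers 76.7% ± 6.44 and 31.4% ± 10.8. Fold changes of the limma test are on the log2(CPM + 1) scale, where values at 0 and the pseudocount set the size for sparse miRNAs. Ranges of CPM without overlap between the groups were seen for 15 of the 18 risers and 12 of the 21 fallers, against 27.8% of all tested miRNAs with every 4-week value above lean and 16.7% with every one below. Overlap is given on CPM here and below, while fold changes are on the TMM scale. With TMM scaling, the ranges of miR-146a-5p, miR-351-5p and miR-503-5p overlap.

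The steepest rises among the tested miRNAs came from those that had few or no reads in lean libraries. The filter on low counts had a part in this, since it asks for enough CPM in as many libraries as a group holds. miR-1927, miR-3075-5p, miR-544-5p, miR-6931-5p, miR-182-5p and miR-362-5p reached that level in too few lean and 16-week libraries. They could pass the filter only through their 4-week values. Their adjusted p does not allow for that selection. With no filter on low counts, which tests 611 miRNAs, all of them but miR-362-5p (edgeR adjusted p 0.236) kept their call. miR-1927 had 1, 0, 1 and 3 reads in lean libraries and 14, 19, 3 and 7 at 4 weeks, although the latter were the shallower ones. Its mean was 79.8 CPM ± 88.3 in lean and 3609 ± 3209 at 4 weeks (SD, n = 4 each), a log2 fold change of 5.14 (SE 0.83, edgeR adjusted p 4e-05). The 4-week values spread widely, from 670 to 8078 CPM, yet all lay above the highest lean value of 204. miR-3075-5p gave 2, 5, 2 and 2 reads in lean and 7, 10, 9 and 5 at 4 weeks. In CPM this was 132 ± 34.6 against 2389 ± 1259 (SD, n = 4 each), a log2 fold change of 3.57 (SE 0.65, adjusted p 7.66e-05). Its 4-week libraries stood at 1499 to 4252 CPM with no overlap with the lean 83.6 to 164, and the 16-week mean was 157 ± 120 (SD, n = 4). The other arm, miR-3075-3p, was listed at 0 in the 8 libraries.

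miR-6931-5p, from an intron of Dcakd on chromosome 11, followed the same pattern at a higher level. Its reads were 5, 11, 5 and 10 in lean and 25, 29, 17 and 16 at 4 weeks, or 404 CPM ± 199 against 6834 ± 3819 (SD, n = 4 each). The groups did not overlap (log2 fold change 3.65, SE 0.64, edgeR adjusted p 7.43e-05). miR-544-5p belongs to the imprinted Dlk1-Dio3 region of chromosome 12, where a large group of miRNAs is transcribed from the maternal chromosome. It had 2, 3, 1 and 4 reads in lean and 8, 3, 3 and 5 at 4 weeks, that is 140 CPM ± 98.3 and 1374 ± 572 (SD, n = 4 each). No 4-week value reached down to the lean range (log2 fold change 2.88, SE 0.66, edgeR adjusted p 0.000733).

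miR-182-5p belongs to the cluster of miR-183, miR-96 and miR-182, which is known as a target of the sterol regulator SREBP. It was read 0, 6, 2 and 9 times in lean and 6, 3, 4 and 14 times at 4 weeks. The lean values ended at 613 CPM and the 4-week values began at 893, with means of 224 ± 272 and 1976 ± 1504 (SD, n = 4 each). The log2 fold change was 2.59 (SE 0.74, edgeR adjusted p 0.00485), and without 4-week replicate 4, the highest library, it was 1.81 with an adjusted p of 0.0595.

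Among abundant miRNAs, miR-5099 and miR-5121 rose most in CPM. miR-5099 had 45534, 31909, 16923 and 55552 CPM in lean libraries and 152347, 246599, 164843 and 108546 at 4 weeks. Each 4-week value was above each lean one (log2 fold change 1.80, SE 0.41, edgeR adjusted p 0.000733). Leaving miR-101b-3p out of the total, its share was 5.83 to 12.4% in lean and 15.1 to 31.5% at 4 weeks. miR-5121 lies in an exon of the ribosomal protein gene Rpl13a on chromosome 7 (45126918 to 45126991, minus strand). Its values were 7347, 13506, 8399 and 49076 CPM in lean and 217492, 151361, 65446 and 39280 at 4 weeks. Here lean replicate 4 stood above 4-week replicate 4, so the groups overlapped (log2 fold change 2.40, SE 0.61, edgeR adjusted p 0.00222). With no filter on low counts, which tests 611 miRNAs, the fold change was 2.07 and the adjusted p 0.0994. Reads of the host message and of the miRNA cannot be told apart in these values. miR-151-3p, also among the 5 most abundant in both groups, went from 29268 CPM ± 4386 to 69316 ± 22104 (SD, n = 4 each), with an edgeR adjusted p of 0.103 and a limma adjusted p of 0.00469.

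miR-146a-5p, which is induced by NF-kB and restrains inflammatory signalling through Traf6 and Irak1, also rose. Its values were 2837, 3253, 1797 and 8997 CPM in lean and 26417, 17007, 10275 and 24888 at 4 weeks. In CPM, lean replicate 4 came close to the lowest 4-week library but did not reach it. With TMM scaling it lay slightly above that library (log2 fold change 1.83, SE 0.43, edgeR adjusted p 0.000912). At 16 weeks the mean was 33042 ± 10271 (SD, n = 4). miR-146a-3p had 10 lean reads and 1 at 4 weeks and was not tested.

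A group of risers came from a stretch of the X chromosome (53047997 to 53054349, minus strand) that holds Mir322, Mir503, Mir351 and Mir450b; miR-322 and miR-503 are known to restrain the cell cycle. Of its 7 tested forms, 4 rose and 0 fell, beside 25% and 29.2% of all tested. miR-322-3p had 2619, 2563, 2089 and 5726 CPM in lean and 14876, 9354, 12732 and 16492 at 4 weeks, with no overlap (log2 fold change 1.59, SE 0.34, edgeR adjusted p 0.000343). miR-351-5p was the most abundant of them, with 8947, 8676, 5766 and 28696 CPM in lean and 87202, 29337, 32611 and 46777 at 4 weeks. In CPM, lean replicate 4 lay just under the lowest 4-week library, and with TMM scaling it lay above that library (log2 fold change 1.60, SE 0.48, edgeR adjusted p 0.00687). Without lean replicate 1, 2 or 3 or 4-week replicate 1 its adjusted p was 0.056, 0.0576, 0.0517 and 0.139, and without 4-week replicate 1, its highest library, the log2 fold change was 0.96.

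miR-503-5p and miR-450b-3p of the same stretch rested on few reads. miR-503-5p had 4, 8, 7 and 12 reads in lean and 6, 6, 6 and 4 at 4 weeks, or 416 CPM ± 268 and 1657 ± 612 (SD, n = 4 each). The groups did not overlap in CPM but did with TMM scaling (log2 fold change 1.52, SE 0.60, edgeR adjusted p 0.0355). For miR-450b-3p the reads were 4, 7, 3 and 11 in lean and 10, 4, 3 and 2 at 4 weeks, and the groups overlapped (log2 fold change 1.66, SE 0.66, edgeR adjusted p 0.0361, limma adjusted p 0.07). miR-503-5p kept the call only without lean replicate 4 or 16-week replicate 2 or 4, and miR-450b-3p only without lean replicate 4, 4-week replicate 3 or 16-week replicate 4. Their adjusted p with one of the other libraries left out lay between 0.0545 and 0.284, and the log2 fold change of miR-450b-3p was 1.013 without 4-week replicate 1. With no filter on low counts their adjusted p was 0.236 and 0.254. The sister forms miR-322-5p (0.72, SE 0.65, adjusted p 0.339) and miR-503-3p (1.18, SE 0.58, adjusted p 0.0894) did not pass, and neither did miR-450b-5p (-0.81, SE 0.88, adjusted p 0.429).

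A further X-linked group sits in an intron of the chloride channel gene Clcn5 (7237683 to 7242046, minus strand). From it miR-501-3p rose, with 4946, 3089, 5348 and 4839 CPM in lean and 29751, 11054, 16976 and 33583 at 4 weeks. The lowest 4-week library was above the highest lean one (log2 fold change 1.77, SE 0.38, edgeR adjusted p 0.000475). miR-500-3p, with the same seed and a neighbouring hairpin, had a log2 fold change of 0.90 (SE 0.51, adjusted p 0.129). miR-362 gave arms that moved apart. miR-362-5p had 1, 2, 4 and 4 reads in lean and 5, 2, 2 and 2 at 4 weeks (log2 fold change 1.95, SE 0.75, edgeR adjusted p 0.0341), and without lean replicate 1 or 2, 4-week replicate 1, 2 or 4 or 16-week replicate 3 its adjusted p was 0.0527 to 0.165, and 0.236 with no filter on low counts. miR-362-3p fell, from 3465 CPM ± 855 to 2518 ± 1359 (SD, n = 4 each), with overlapping groups (log2 fold change -1.06, SE 0.43, edgeR adjusted p 0.0395). Without 4-week replicate 1, 2 or 3 its adjusted p was 0.0976, 0.0781 and 0.0762.

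The other risers were moderately abundant. miR-24-2-5p, the passenger arm of a hairpin in the miR-23a/27a/24-2 cluster on chromosome 8, had 2109, 4404, 2632 and 8861 CPM in lean and 18723, 9779, 12732 and 24888 at 4 weeks. The groups did not overlap, although lean replicate 4 came near (log2 fold change 1.41, SE 0.38, edgeR adjusted p 0.00297; 0.0688 without 4-week replicate 4 and 0.0565 with no filter on low counts). miR-455-3p, from an intron of the collagen gene Col27a1 on chromosome 4, had 1964, 1413, 1170 and 3681 CPM in lean and 2052, 12755, 7818 and 13193 at 4 weeks. Its 4-week replicate 1 stayed within the lean range (log2 fold change 1.57, SE 0.43, edgeR adjusted p 0.00376). miR-7242-3p had 2109, 822, 1337 and 1909 CPM in lean and 4360, 11054, 6478 and 7496 at 4 weeks, with no overlap (log2 fold change 1.73, SE 0.46, edgeR adjusted p 0.00267).

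Lean replicate 4 was the highest lean library for 14 of the 18 risers (77.8%), for 2 of the 21 fallers (9.52%) and for 29 of all 72 tested miRNAs (40.3%), and its share of miR-101b-3p was the lowest of the lean libraries. Its part in the results was measured by leaving it out: the count test then called 24 risers and 24 fallers, and 38 of the 39 miRNAs kept their call, all but miR-511-5p.

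**Figure D3:**
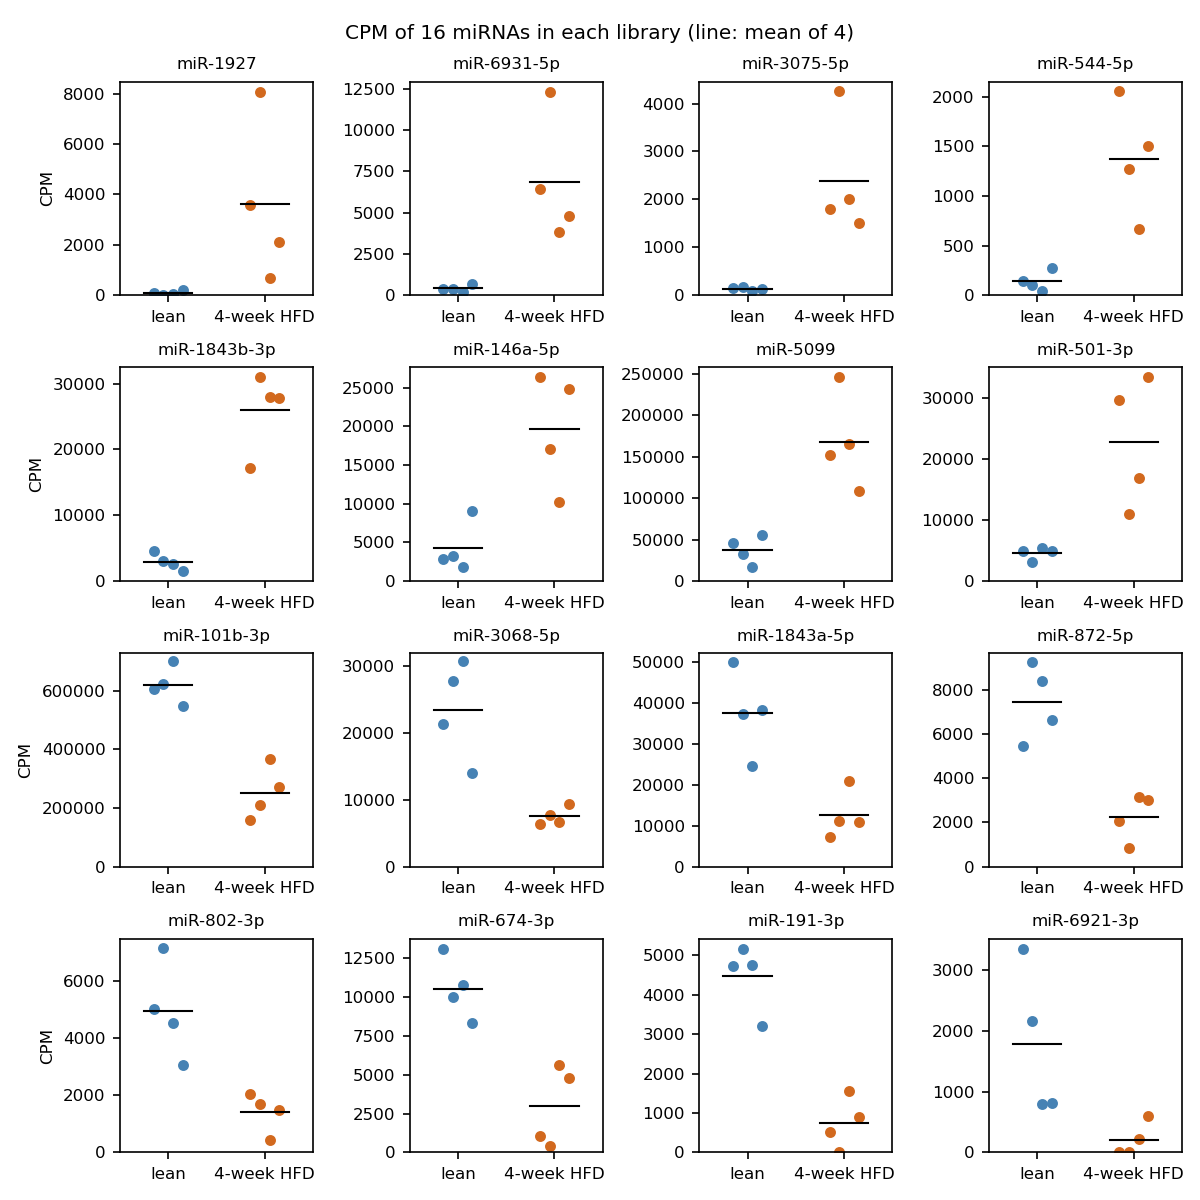
CPM of 16 miRNAs in each of the 4 lean and 4 HFD libraries; each point is a library and each line a group mean, with linear axes from 0. In all 16 panels the groups are apart, the upper 8 panels with 4-week libraries above lean and the lower 8 below.

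Of 3 tested hepatocyte-enriched miRNAs, 2 fell, miR-802-3p and miR-101b-3p, while miR-192-5p was not called. miR-802-3p is the 3p arm of a hairpin whose 5p form is known to rise in the liver of obese mice and to impair insulin signalling. It had 5019, 7164, 4555 and 3067 CPM in lean and 2052, 1701, 447 and 1499 at 4 weeks, with no overlap (log2 fold change -2.37, SE 0.50, edgeR adjusted p 0.000343). Its 16-week mean was 11493 ± 4832 (SD, n = 4), so the group means were lowest at 4 weeks and highest at 16. For miR-101b-3p itself the count test gave -1.86 (SE 0.33, adjusted p 7.66e-05). miR-6921-3p lies in an intron of Srebf1, the gene of the lipogenic factor SREBP-1, on chromosome 11 (60200538 to 60200617, minus strand). It was read 46, 66, 19 and 12 times in lean and 0, 0, 1 and 2 times at 4 weeks. The lean mean was 1782 CPM ± 1225 and the 4-week mean 206 ± 283 (SD, n = 4 each; log2 fold change -3.57, SE 0.81, edgeR adjusted p 0.000709).

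The next 4 fallers passed both tests as well; no role is given for them here. miR-674-3p had 13093, 9957, 10739 and 8316 CPM in lean and 1026, 425, 5584 and 4798 at 4 weeks (log2 fold change -2.39, SE 0.45, edgeR adjusted p 0.000122). miR-3068-5p, from an intron of Alkbh1, had 21385, 27769, 30712 and 14041 CPM in lean and 6412, 7653, 6701 and 9295 at 4 weeks (-2.25, SE 0.44, adjusted p 0.000152). Neither had a 4-week library within the lean range. miR-872-5p, from an intron of Ift74, had 5455, 9234, 8399 and 6612 CPM in lean and 2052, 850, 3127 and 2998 at 4 weeks (-2.25, SE 0.39, edgeR adjusted p 7.43e-05). miR-1843a-5p had 50044, 37332, 24611 and 38239 CPM in lean and 7181, 11054, 20996 and 10795 at 4 weeks (-2.07, SE 0.40, edgeR adjusted p 0.000152). These too were apart in all libraries, the latter by the narrowest margin.

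The 14 fallers called by the count test and not by limma had log2 fold changes from -3.01 to -0.99, and with library totals alone these were all smaller in size, where miR-191-3p alone of the 14 still passed. miR-191-3p was the steepest, with 65, 157, 114 and 47 reads in lean and 2, 0, 7 and 3 at 4 weeks (log2 fold change -3.01, SE 0.53, edgeR adjusted p 7.43e-05). Its 4-week libraries, at 0 to 1564 CPM, were all below the lean 3204 to 5159. miR-21a-3p, the passenger arm of the growth-promoting miR-21a, had 44, 142, 76 and 42 reads in lean and 3, 0, 4 and 15 at 4 weeks, where 4-week replicate 4 reached the lean range (-1.84, SE 0.54, adjusted p 0.0059; adjusted p 0.0604 without 4-week replicate 1, and a fold change of -3.10 without 4-week replicate 4). miR-92a-3p, of the miR-17-92 cluster and a second locus on the X chromosome, went from 15888 CPM ± 6300 to 10597 ± 5667 (SD, n = 4 each) with overlapping groups (-1.18, SE 0.35, edgeR adjusted p 0.00665; 0.0914 without 4-week replicate 1). The others were miR-7219-3p, miR-541-5p, miR-203-5p, miR-505-3p, miR-203b-3p, miR-511-5p, miR-1948-5p, miR-1843b-5p, miR-362-3p, miR-339-3p and miR-350-5p, and of these only miR-541-5p and miR-1843b-5p kept the call without each library in turn. Without 4-week replicate 1, 26 of all 39 calls were kept, and without 4-week replicate 2, 30. Of the 21 fallers, 9 had fewer than 5 reads per 4-week library on average, as did 3 of the 18 risers.

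Arms of a hairpin offer a comparison that needs no scaling, since both are counted in the same library. Of 16 hairpins with at least 15 reads per arm over the 8 libraries, 5 had 3p shares that did not overlap between groups. The share of 3p reads of miR-1843b was 28.9, 23.5, 25.2 and 13.8% in lean and 81.7, 90.1, 78.6 and 79.5% at 4 weeks. With reads assigned as deposited, the dominant arm thus differed between the groups in every library. No single 95% Wilson interval was wider than 16.6 points. On average the share was 22.8% ± 6.45 and 82.5% ± 5.26 (SD, n = 4 each; exact permutation test p 0.0286, adjusted over 16 hairpins 0.0914). With 4 libraries a group, 0.0286 is the smallest p, and 0 of the 16 hairpins passed after adjustment. The comparison was chosen after the single arms had been seen to move apart.

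The values behind it came from both arms. miR-1843b-3p had 63, 91, 62 and 23 reads in lean and 67, 73, 125 and 93 at 4 weeks, which in CPM was 4582, 2990, 2591 and 1568 against 17184, 31037, 27920 and 27886. It was the riser with the smallest adjusted p (log2 fold change 2.60, SE 0.38, edgeR adjusted p 1.38e-05), and its 16-week mean was 1524 CPM ± 398 (SD, n = 4). miR-1843b-5p fell from 9626 CPM ± 1474 to 5510 ± 2191 (SD, n = 4 each; -1.33, SE 0.32, edgeR adjusted p 0.0013, limma adjusted p 0.0748), with the highest 4-week library at 7594 and the lowest lean one at 7688. The hairpin lies on chromosome 1 (159340358 to 159340423, plus strand) in an intron of Cop1, where the annotation also places an exon of the small Cajal body RNA Scarna3a. Reads of that RNA and of the miRNA cannot be told apart in these values.

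Its relative miR-1843a, on chromosome 12 (80391613 to 80391677, minus strand) within Scarna3b and an intron of Dcaf5, also shifted toward 3p, from 13.8, 20.8, 13.9 and 4.27% to 30.0, 55.2, 24.19 and 26.5%. There the 5p arm fell, as given above, and miR-1843a-3p had a log2 fold change of -0.32 (SE 0.52, edgeR adjusted p 0.607). The 3p forms of both hairpins differ by 2 bases over 20. Their 5p forms are identical over 20 bases, so the way reads were split between them affects the 3p shares of both. miR-3068 shifted the same way, from 3.29 to 5.41% in lean to 6.06 to 21.7% at 4 weeks, on 12 reads of 3p at 4 weeks. The 95% Wilson interval of 4-week replicate 4, the lowest of these, was 1.68 to 19.6% and covered the lean shares. The 3p share of miR-450b was 27.3 to 58.3% in lean and 66.7 to 100% at 4 weeks, on 53 lean reads and 23 at 4 weeks. miR-362 went the other way, from 98.2, 98.5, 94.7 and 90.2% of 3p reads to 64.3, 66.7, 77.8 and 88.2%. Its 4-week shares rested on 11 reads of 5p and 35 of 3p, with 95% Wilson intervals 31.0 to 60.3 points wide. For the other 11 hairpins, among them miR-322, miR-351, miR-511 and miR-21a, the groups overlapped.

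**Figure D4:**
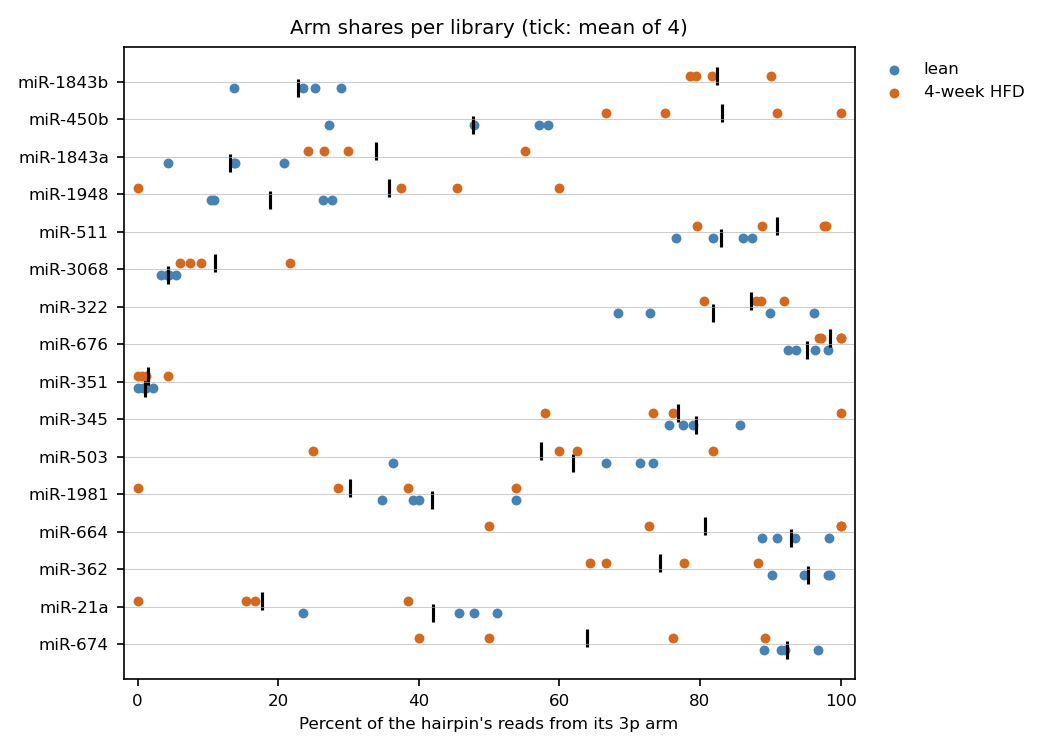
Percent of a hairpin's reads that come from its 3p arm, for the 16 hairpins with at least 15 reads per arm; each point is a library and each tick a group mean of 4. miR-1843b stands out with 13.8 to 28.9% in lean and 78.6 to 90.1% at 4 weeks, while most other hairpins overlap.

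Lists of miRNAs by cell type and function were read against the shares of all tested miRNAs, of which 25% rose, 29.2% fell and 54.2% did either. Few members of any list could be tested, so the counts are small. Of 16 hepatocyte-enriched rows 7 were detected and 3 tested, of which 0 rose (25% of all tested) and 2 fell (29.2% of all tested; miR-101b-3p and miR-802-3p, median -1.86 beside -0.03 over all tested). miR-192-5p, a hepatocyte and gut miRNA, had 19 lean reads and 8 at 4 weeks (0.72, edgeR adjusted p 0.39). Its CPM was 145 to 409 in lean and 425 to 900 at 4 weeks, without overlap. miR-101b-5p, the other arm of miR-101b-3p, had 4 lean reads and 5 at 4 weeks. Its CPM was 0 to 83.6 in lean and 223 to 600 at 4 weeks, and edgeR did not test it. The defining hepatocyte miRNA, miR-122-5p, had 1 lean read and 0 at 4 weeks, which says nothing of the cell type here, since zeros in this table need not mean absence. The guide arms miR-191-5p and miR-339-5p were listed at 0 in all 12 libraries while their partners miR-191-3p and miR-339-3p had 383 and 488 lean reads, and miR-802-5p was listed at 0 in the 8 libraries beside 441 lean reads of miR-802-3p. Of 18 rows on lipid and insulin metabolism 3 were tested and all 3 called, beside 54.2% of all tested, with miR-3075-5p and miR-182-5p higher and miR-802-3p lower, and miR-3075-5p is on that list because of earlier results. miR-690 was listed at 0.

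Most markers of other cells were listed at 0 or near it, as were 1471 of the 1958 rows in the 8 libraries, so these zeros do not show that such cells were absent. Endothelial markers (6 of 6) had no read, red blood cell markers with whole reads had 3 in lean and 0 at 4 weeks, and muscle markers 0 and 1. The left-out red blood cell marker miR-486a-5p was deposited at 26.6 to 97.4 CPM in lean and 65.3 to 1026 at 4 weeks. Its lean values were 0 to 68.2 CPM when exchanged with the 16-week columns. For leukocytes and macrophages, miR-223-3p was listed at 0, and 8 of the 13 markers with whole reads had none in the 8 libraries. The 14th, miR-155-5p, a main leukocyte miRNA, was deposited at 851 to 5502 CPM in lean and 1117 to 6597 at 4 weeks, but its lean values were not whole reads. With the lean and 16-week columns exchanged, lean was at 0 to 886 CPM, below every 4-week library (log2 fold change 2.86, SE 0.74, edgeR adjusted p 0.00254). That exchange made 44 of the 46 lean and 16-week values of the left-out rows whole reads of their own library. The sources used here do not say which values are the lean ones. The others detected were miR-146a-5p, which rose, miR-511-5p, which fell (-1.62, SE 0.68, edgeR adjusted p 0.0456, and 0.0509 to 0.194 without lean replicate 2 or 4, 4-week replicate 1, 2 or 3 or 16-week replicate 2; the fold change was -3.25 without 4-week replicate 4), miR-511-3p (-0.52, adjusted p 0.284), and miR-146a-3p and miR-181a-5p with few reads. Without miR-155-5p the list's summed level was 6059 to 33058 CPM in lean and 20833 to 38081 at 4 weeks. The bile duct and epithelial list was the one list of markers of other cells whose summed level was higher in every 4-week library, with 0 to 750 CPM in lean and 1117 to 5397 at 4 weeks, on 20 and 37 reads. It rests mostly on miR-182-5p and miR-200a-3p, with 10 of its 16 members at 0, and its part in the rise of miR-182-5p was not tested. Of stellate cell and fibroblast markers 4 of 17 were detected and only miR-125b-2-3p was tested (-0.69, edgeR adjusted p 0.103), and of neural markers miR-219a-1-3p (-0.91, adjusted p 0.176).

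**Figure D5:**
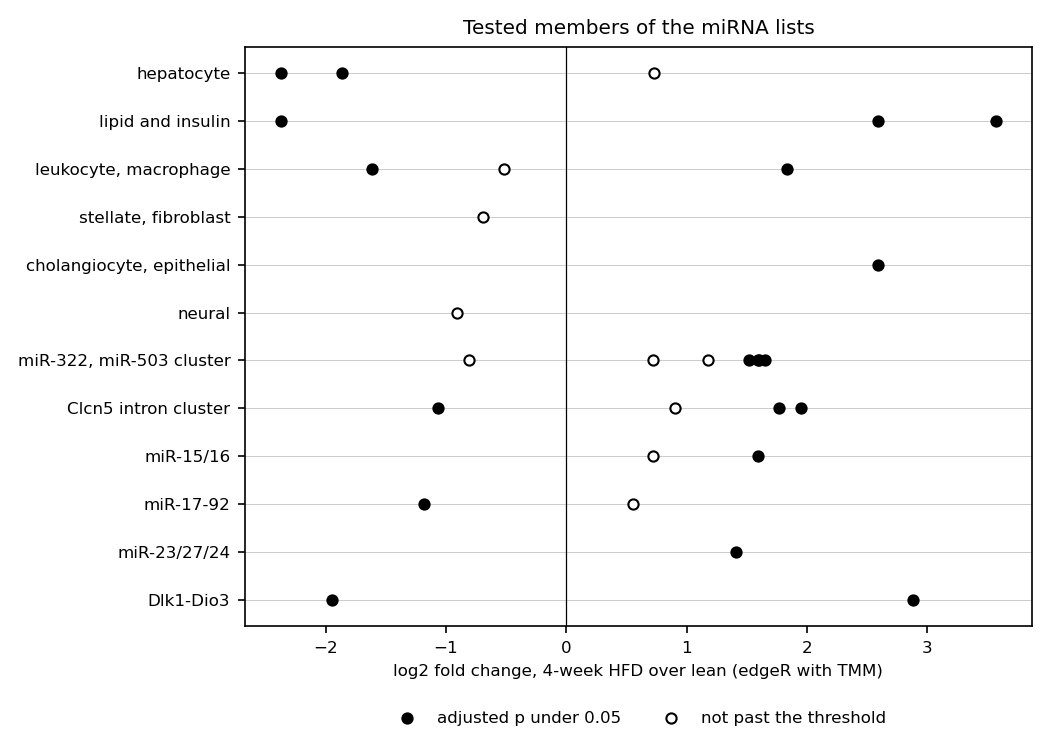
log2 fold changes, 4-week HFD over lean, of the list members that could be tested; filled points passed an adjusted p of 0.05 in edgeR and open points did not. The cluster of miR-322 and miR-503 holds 4 filled points between 1.52 and 1.66, and most lists hold 1 to 3 tested members.

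For widely expressed families the table held few reads. Of the let-7 family 18 of 20 rows were listed at 0 in the 8 libraries and of the miR-30 family 7 of 11, and 0 of either could be tested; nearly every cell uses both, so these zeros are no measure of their level in the exosomes. The miR-15/16 list had 2 tested members, miR-322-3p and miR-322-5p, and the miR-17-92 list also 2, miR-92a-3p and miR-17-3p (0.55, SE 0.64, edgeR adjusted p 0.459). The miR-23/27/24 list had miR-24-2-5p as its 1 detected row. Of 88 rows of the Dlk1-Dio3 region with whole reads 23 were detected and 2 tested, miR-544-5p higher and miR-541-5p lower (-1.95, SE 0.56, edgeR adjusted p 0.00485). A further 4 rows of the region (miR-434-3p, miR-376b-3p, miR-300-3p and miR-299a-3p) were left out. The lean values of miR-434-3p were 0 to 186 CPM as deposited and 1977 to 5674 when exchanged with the 16-week columns, beside 0 to 447 at 4 weeks. For miR-300-3p they were 42.8 to 146 and 1742 to 4001 CPM, beside 0 to 425 at 4 weeks. With the exchange the log2 fold change was -4.48 (SE 0.79) for miR-434-3p and -4.58 (SE 0.81) for miR-300-3p. Both had an edgeR adjusted p of 6.72e-05 there.

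Some miRNAs were read in one group only, and most of these were too sparse to compare. Of 85 read at 4 weeks and in no lean library, 79 had 3 reads or fewer. The epithelial miR-200a-3p had 1, 1, 1 and 3 reads at 4 weeks and none in lean, at least 12.4-fold higher against a floor of 3 reads over the lean group. miR-6237, with 2, 3, 0 and 1 reads, was at least 14.4-fold higher by the same floor. In the other direction 190 were read in lean and in no 4-week library, but 187 of them had a lean mean under the 4-week floor. The 3 at or above it were miR-376b-5p with 16, 15, 7 and 5 lean reads, at least 2.68-fold lower at 4 weeks, miR-15a-3p with 3, 10, 4 and 4, at least 1.16-fold lower, and miR-6964-3p with 5, 9, 4 and 2, at least 1.128-fold lower. An absence at 4 weeks was therefore not detectable at this depth for nearly all miRNAs.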

How the data were processed

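Small RNA of hepatocyte exosomes was measured in 12 libraries, 4 per group, grouped by their labels. The authors deposited 1 table of CPM, made per the submitters' processing notes with cutadapt 1.13 and edgeR 3.16.5 on the mm10 build; aligner, annotation and handling of multiply matching reads are not given in the sources used here. Each deposited CPM was divided by the value of 1 read in its column, and 2617 of 2664 values above 0 (98.2%) were whole within a relative tolerance of 1e-06. The deposited values of 7 miRNAs (miR-486a-5p, miR-155-5p, miR-346-5p and, from the Dlk1-Dio3 region, miR-434-3p, miR-376b-3p, miR-300-3p and miR-299a-3p) were not, and these were left out. Of their 46 values, 44 became whole when lean and 16-week columns of the same number were exchanged, which was run as an alternative.

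Although the unit is CPM, the recovered reads allowed a count test, which suits the shallow 4-week libraries and was the main one. It was edgeR 4.0.16 in R 4.3.3 (robust quasi-likelihood, filterByExpr, TMM, Benjamini-Hochberg, two-sided) over all 12 libraries. TMM factors were 0.683 to 1.06 in lean and 0.993 to 1.94 at 4 weeks. The other tests were limma 3.58.1 on log2(CPM + 1) (miRNAs reaching 10 CPM in 4 or more libraries), DESeq2 1.42.0, and exact permutation tests with scipy 1.17.1 for 3 profile measures and for arm shares. Both fits were tried on simulated data. Libraries with the same replicate number did not deviate together. Members and lists were chosen with earlier results of these data known. Named are all miRNAs past the threshold in the count test (at most 25 per direction), their other arms and seed partners, the 5 most abundant of each group, the 5 best read in one group only, preset miRNAs and the up to 4 best read members of each list; full values are given for those that pass in both tests. Intervals are 95% Wilson and floors 3 reads over a group. Hairpin places come from GENCODE vM21 and RefSeq on GRCm38, and hairpins within 10000 bases on a strand were grouped. Scaling, filters, pseudocounts, the replicate block and each library left out were tried as alternatives.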

Additional observations from a re-analysis of the deposited data

Results flagged for a closer look

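Of 116 groups of 4 libraries, 6 held a library far from the other 3 by Dixon's criterion, which chance meets in about 1 in 20 groups. For 4 of these the library was lean replicate 4. It had 5726 CPM of miR-322-3p where the other lean libraries had 2089 to 2619, and 28696 CPM of miR-351-5p where they had 5766 to 8947. miR-503-5p, from the same X-linked stretch, stood at 818 CPM beside 263 to 292. miR-5121 stood at 49076 CPM beside 7347 to 13506.

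The other 2 were in different libraries. Lean replicate 1 had 3782 CPM of miR-505-3p, beside 1295 to 1479 in the other lean libraries. The fourth 4-week library had 2699 CPM of miR-511-5p, on 9 reads, beside 223 to 425 on 1 read each.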

How the results depend on the processing

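The counts of 18 higher and 21 lower miRNAs became 28 higher with limma on log2(CPM + 10) and 8 lower with library totals alone, and with each of the 12 libraries left out in turn they ranged from 14 to 24 and from 12 to 25. Without 4-week replicate 1 the lower count was 12. Across 1317 alternative values of 54 named miRNAs, 1164 kept direction and side of the threshold, 131 lost it, 22 gained it and 0 changed direction. Of the 39 calls, 18 held under every alternative run and 17 were lost without at least 1 library. All 39 held with DESeq2 (19 higher, 25 lower), 27 of 31 still tested with the 8 libraries alone (13 and 14), 26 without a filter (19 and 15) and 24 with limma. The replicate block gave 19 higher and 19 lower and ended 2 calls, miR-203-5p and miR-362-3p. Same-numbered libraries correlated at -0.275, -0.191, 0.0964 and -0.18 and none best with its own number. This gave no sign of pairing by number, but at this depth it cannot exclude a shared batch. The difference in detected miRNAs was -89 at full depth and -9.14 without miR-101b-3p, and that of the inverse Simpson index -10.8 without it. The direction of both measures thus depends on miR-101b-3p, and that of detected miRNAs on depth too. With a library left out, an exact test over 35 assignments cannot pass; the share of miR-101b-3p then differed by -40.9 to -33.9 points, the index by 4.72 to 5.98 and detected miRNAs by 19.8 to 30.2. The alternatives with library totals and no miR-101b-3p, and of detected miRNAs without it, were chosen after seeing the data. Depth limits the 4-week group: values under 213 CPM are below its floor of 3 reads.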

Other observations

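Base composition and 2 short motifs were compared among the 33 called miRNAs with a sequence. The median GC content was 50% for those higher at 4 weeks, 47.6% for those lower, and 50% for the 64 tested with a sequence. GGAG, a motif known from miRNA sorting into exosomes, was found in 13.3% of the higher, 22.22% of the lower and 14.1% of the tested sequences, on the miRNA strand. GGCU was found in 6.67%, 5.56% and 7.81%. These shares are descriptions, and a missing motif says only that the letters are not in the mature sequence.

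By arm, the higher miRNAs were 6 of the 3p, 9 of the 5p and 3 without an arm in the name, the lower ones 12, 9 and 0, and all tested 40, 26 and 6.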
